A study of Mus musculus with 70 samples.

Results

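Lactate, ketone bodies and glucose are the fuels that pass between blood, glia and neurons, and the 10 genes described here encode proteins that carry or convert them: the monocarboxylate transporters Slc16a1 (MCT1) and Slc16a7 (MCT2), the lactate dehydrogenase subunits Ldha and Ldhb, the glucose transporters Slc2a1 (GLUT1) and Slc2a3 (GLUT3), hexokinase 1 (Hk1), the pyruvate dehydrogenase kinases Pdk2 and Pdk4, and the mitochondrial ketone enzyme Bdh1. The members were taken by symbol from the table of expression values, in which they were 10 of 24346 genes. All 10 exceeded the minimum mean of 1 FPKM (mapped fragments normalised for transcript length and library size), as did 12994 genes in all.

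RNA was sequenced from the dorsal hippocampus of 70 adult male C57BL/6J mice, 10 in each of 7 groups. An exercise group is named by its days of initial wheel running, of sedentary delay and of renewed running. Thus 14-0-0 ran for 14 days, 14-7-0 then rested for 7 days, 14-14-0 rested for 14 days, 14-7-2 ran for 2 more days after a rest of 7 days, and 0-0-2 ran for 2 days only. The sedentary mice (0-0-0) never ran, and they and every exercise group were trained for 3 min in an object location memory (OLM) task 1 h before tissue was taken. The home cage group (HC) had neither running nor OLM training. In every exercise group still running, the wheels were removed the night before OLM training. All mice were housed singly, running was voluntary, and each group held 5 mice from each of 2 harvest cohorts collected on separate days. A whole tissue block was measured, so that fewer cells of a type and less RNA per cell cannot be told apart.

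Glucose crosses the blood-brain barrier by GLUT1 and enters neurons largely by GLUT3, after which hexokinase traps it for glycolysis. In the usual account of brain fuel use, glia release lactate by MCT1 and related carriers and neurons take it up by MCT2, and lactate dehydrogenase converts pyruvate and lactate in both directions, with A subunits favoured in glycolytic cells and B subunits in oxidative ones. Pyruvate dehydrogenase kinases switch off the entry of pyruvate into the citric acid cycle, and BDH1 interconverts the ketone bodies beta-hydroxybutyrate and acetoacetate, which use the same monocarboxylate carriers. Running raises lactate in blood, and prolonged running raises ketones.

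Several libraries stood apart. Sedentary replicate 6 held 2.45 FPKM of Neurod6 and 17.1 FPKM of Slc17a7, markers of hippocampal excitatory neurons, where the other 9 sedentary libraries held 166 ± 30.9 and 622 ± 96.9 FPKM (mean ± SD). Its values for these members were also extreme, with the lowest Slc16a7 (2.33 FPKM) and the highest Ldhb (503 FPKM) and Slc2a1 (53.8 FPKM) of all 70 libraries, so the comparisons with sedentary are given with and without it. In 14-7-0 replicate 4, 10279 genes were listed at 0, against 6243 to 7199 in the other libraries, and its estimated depth relative to sedentary replicate 0 was 0.0361, against 0.345 to 1.48 elsewhere. A score of 12 choroid plexus markers (Ttr, Folr1, Kl and others) split the remaining 68 libraries into 53 with low and 15 with high scores, and those 15 were 5 of 14-0-0, 5 of 14-14-0, 3 of HC, 1 of 14-7-2 and 1 of 0-0-2. The summed level of these markers reached 375 FPKM in sedentary but 16242 FPKM in 14-0-0, 22043 FPKM in 14-14-0 and 15733 FPKM in HC, and no marker was at 0 in every library of a group.

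Promoter sequence from RefSeq on GRCm38.p6 was found for 8 of the 10 genes, in 12 windows. The stretches of 100 bases just before the start site are shown for the paired subunits Ldha and Ldhb, whose balance is reported below, and for the transporters Slc2a1 and Slc16a1, which each passed a test reported below. Capitals mark matches to the GC box GGGCGG, the CCAAT box, the E-box CACGTG, the hypoxia response core ACGTG, the TATA box TATAAA and the cyclic AMP response element TGACGTCA on either strand. They lie at chr7:46845704-46845803 (+), chr6:142507958-142508057 (-), chr4:119108645-119108744 (+) and chr3:104638564-104638663 (+), in the order below.
Ldha: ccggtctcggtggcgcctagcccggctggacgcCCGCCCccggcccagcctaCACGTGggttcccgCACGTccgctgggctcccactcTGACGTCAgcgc
Ldhb: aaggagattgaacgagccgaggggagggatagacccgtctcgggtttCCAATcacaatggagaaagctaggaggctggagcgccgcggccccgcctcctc
Slc2a1: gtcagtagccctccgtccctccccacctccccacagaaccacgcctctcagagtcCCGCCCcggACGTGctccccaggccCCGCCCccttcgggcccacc
Slc16a1: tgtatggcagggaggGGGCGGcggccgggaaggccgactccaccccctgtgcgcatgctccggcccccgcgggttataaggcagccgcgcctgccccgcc

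In the stretch shown, the first of its 2 windows, Ldha held 1 GC box, 1 E-box, 3 hypoxia response cores and 1 cyclic AMP response element, and Ldhb held 1 CCAAT box and none of the other motifs. An E-box contains the core on both strands and so counts as 2 core matches. Slc2a1 held 2 GC boxes and 1 core, and Slc16a1 held 1 GC box. The bases just after the start site of the second Ldha window (46847082) occurred somewhere in a GENCODE transcript of Ldha, unlike those of the first. This second window held none of the motifs. The Slc16a1 window, like the first of Ldha, lacked such a transcript match. Over the whole 250 bases upstream, Ldha held 2 GC boxes, 2 E-boxes, 5 cores and 1 cyclic AMP response element, Ldhb 1 CCAAT box, Slc2a1 2 GC boxes and 1 core, and Slc16a1 1 GC box, 1 E-box and 2 cores. In windows of that length, 32.7% of 32851 mouse promoter windows held a GC box, 33.9% a CCAAT box, 6.02% an E-box, 16.6% the core, 12.4% a TATA box and 1.55% the cyclic AMP response element. A match is a run of letters and not a measured binding site.

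The 10 genes spanned a wide range of levels, in the same order in nearly every library. Per length, Ldhb was the most abundant with 317 ± 43.0 FPKM over 70 libraries, followed by Ldha with 196 ± 20.1, Hk1 with 94.8 ± 13.4 and Pdk2 with 49.9 ± 6.87 FPKM. Slc2a1 (36.8 ± 6.73 FPKM) and Slc2a3 (36.7 ± 3.65 FPKM) did not differ beyond their spread, since Slc2a1 was the higher of the pair in 35 of 70 libraries. Below them came Bdh1 with 15.5 ± 1.66, Slc16a1 with 11.6 ± 1.47, Slc16a7 with 6.32 ± 1.18 and Pdk4 with 3.95 ± 0.798 FPKM. The order held in 70 of 70 libraries for Ldhb over Ldha, Ldha over Hk1, Hk1 over Pdk2 and Slc2a3 over Bdh1, and in 69, 68, 69 and 65 libraries for Pdk2 over Slc2a1, Bdh1 over Slc16a1, Slc16a1 over Slc16a7 and Slc16a7 over Pdk4. The level of Ldha is less certain than the others, since reads that matched several places in the genome were removed and Ldha has processed copies elsewhere.

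**Figure D1:**
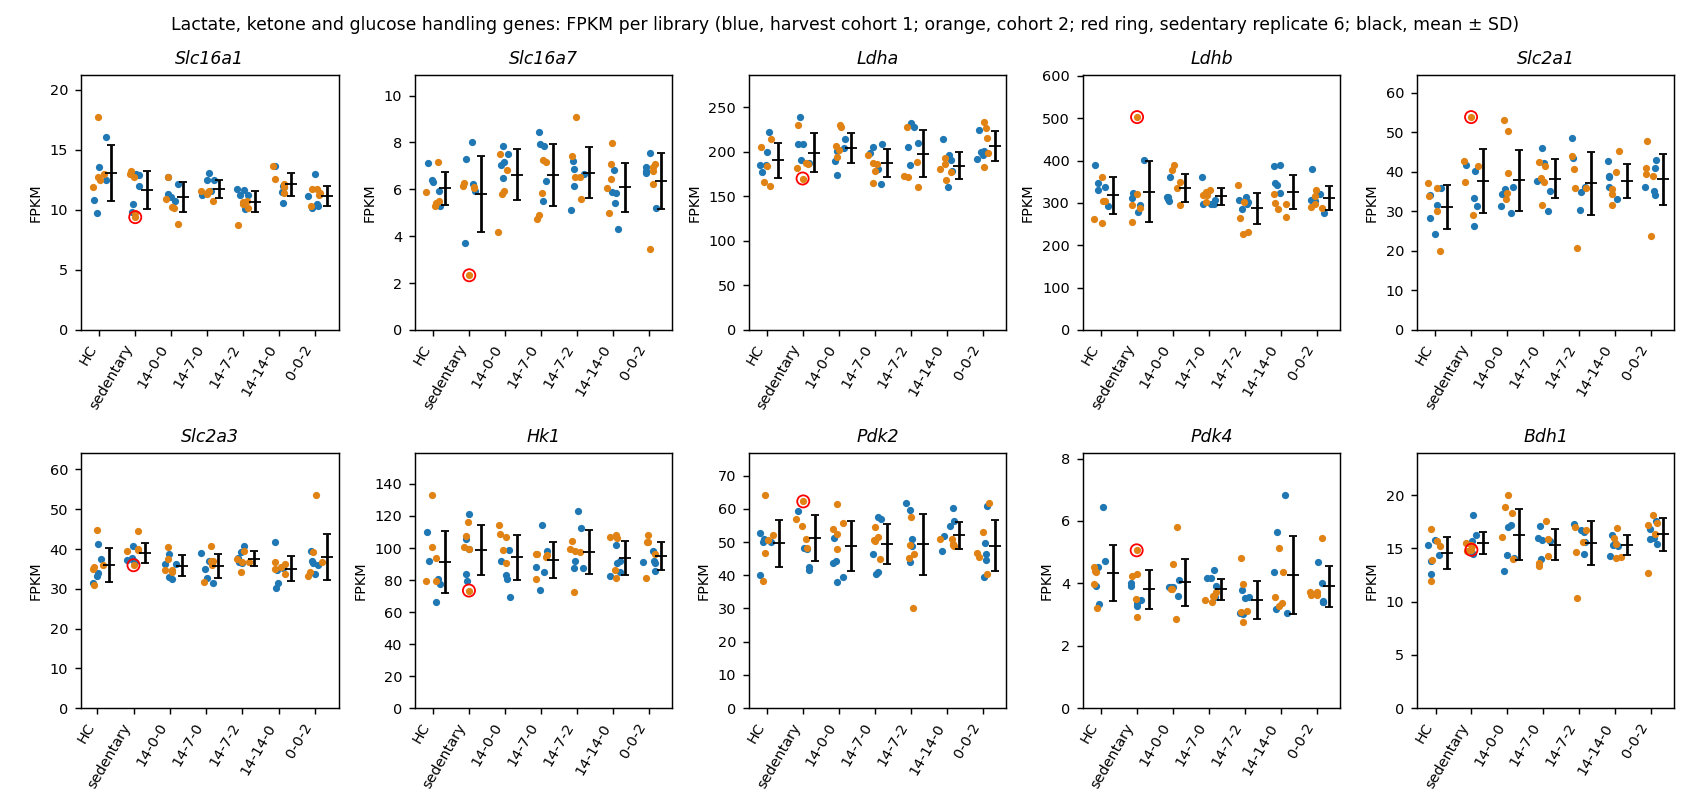
FPKM of each gene (vertical axes, from 0) in each of the 70 libraries by group (horizontal axes), with points coloured by harvest cohort, bars for mean ± SD (n = 10) and a red ring for sedentary replicate 6. The groups overlap for every gene, Slc16a1 is highest in HC (mean 13.1 FPKM) and lowest in 14-7-2 (10.7 FPKM), and the ringed library is the lowest for Slc16a7 and the highest for Ldhb and Slc2a1.

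Group means lay close together. The ratio of the highest to the lowest group mean was 1.25 for Pdk4, 1.23 for Slc2a1, 1.22 for Slc16a1, 1.17 for Ldhb, 1.16 for Slc16a7, 1.12 for both Ldha and Bdh1, 1.11 for Slc2a3, 1.08 for Hk1 and 1.07 for Pdk2. The spread between libraries of a group on the log2 scale ran from an SD of 0.13 for Slc2a3, which was tighter than most genes (12.4th percentile of the genes tested), to 0.31 for Slc16a7 (73.3rd percentile), with a median of 0.22 over all genes tested. In an F test of any difference over the 7 groups, 7.63% of all genes passed at an unadjusted p under 0.05, and 1 of the 10 members did, Slc16a1 (p = 0.00625, adjusted p = 0.418). Without sedentary replicate 6 it was again Slc16a1 alone (p = 0.00425, adjusted p = 0.308), with 8.47% of all genes passing.

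Each exercise group and HC were compared with sedentary to ask whether running, rest and renewed running, or OLM training itself, moved these genes. These 6 comparisons share the same 10 sedentary libraries. Of the 10 members, 1 passed at an unadjusted p under 0.05 in 14-0-0 (9.15% of all genes did), 1 in 14-7-0 (3.26%), 0 in 14-7-2 (4.39%), 1 in 14-14-0 (4.95%), 0 in 0-0-2 (2.37%) and 1 in HC (2.3%). Shares this near the background are not a result about the members as a list. With Benjamini-Hochberg adjustment over the 12994 genes, no gene of any kind passed in these comparisons, and the smallest adjusted p of a member was 0.414. Without sedentary replicate 6, 4 genes passed in 14-0-0, none of them a member. The largest of the 60 log2 differences was 0.27 in size, and 55 of the 60 intervals (95%) lay within 0.5 on either side of no difference. Without sedentary replicate 6 the members passing were 1 in 14-0-0 (10.3% of all genes), 1 in 14-7-0 (3.29%), 1 in 14-7-2 (3.58%), 2 in 14-14-0 (6.97%), 0 in 0-0-2 (2.52%) and 2 in HC (3.15%).

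**Figure D2:**
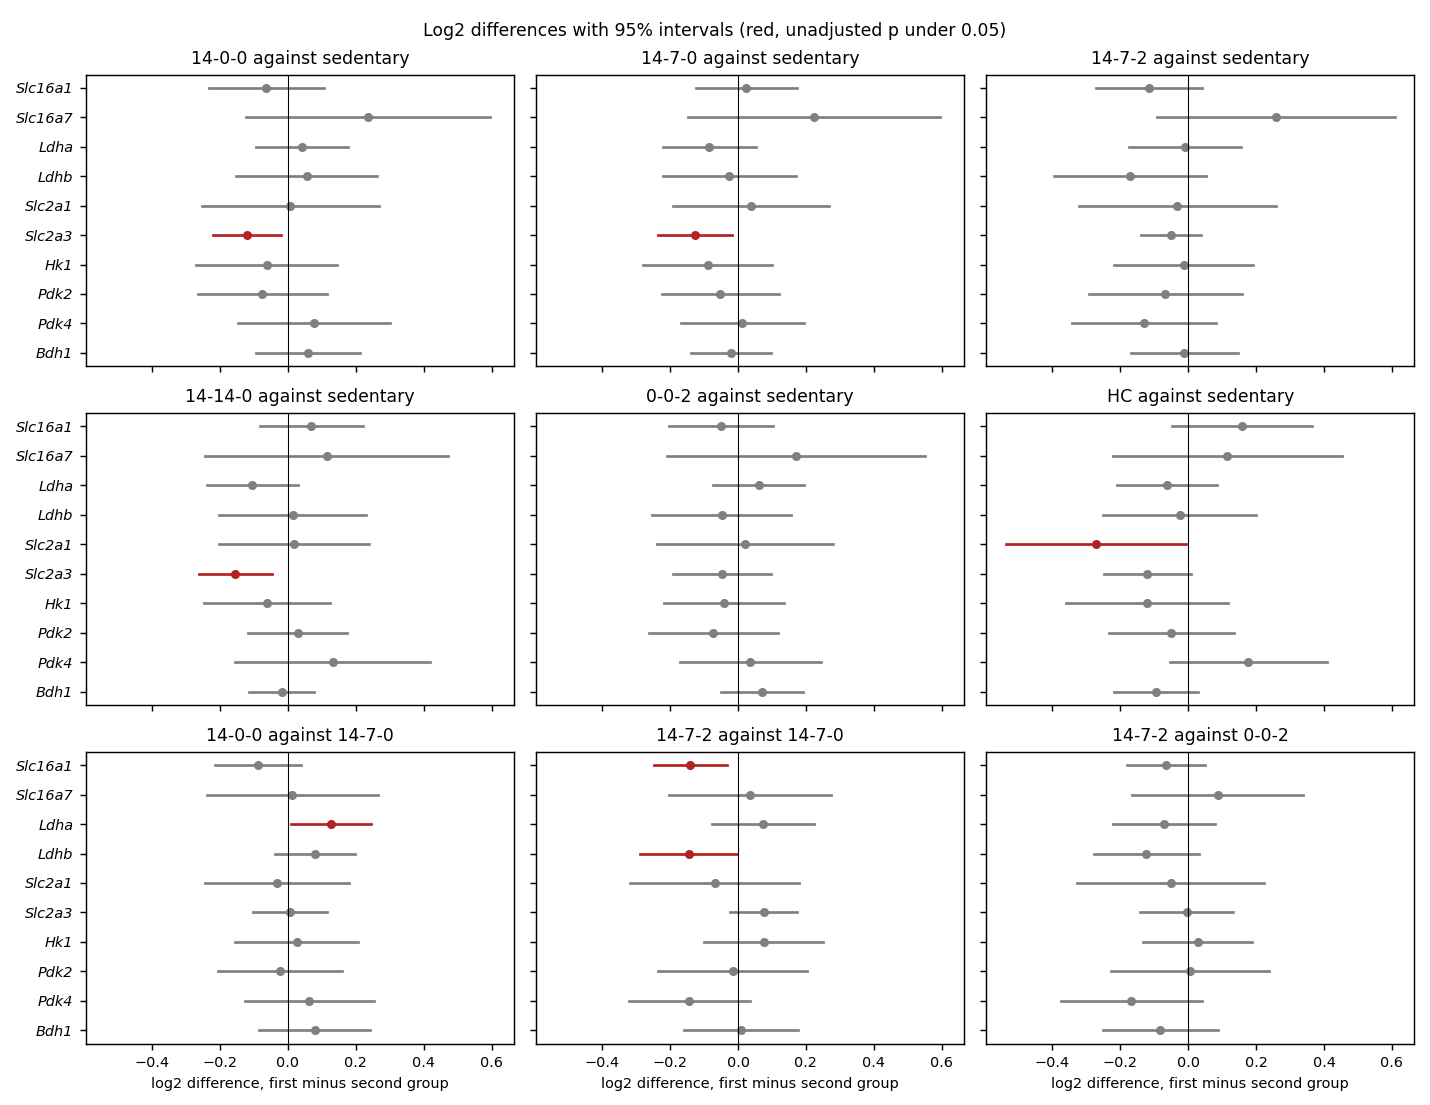
Log2 difference of each gene (first minus second group, horizontal axis, on the log2(FPKM + 0.1) scale) with its 95% interval in the 9 comparisons, in red where the unadjusted p was under 0.05. Slc2a3 is red and below 0 in 14-0-0, 14-7-0 and 14-14-0 against sedentary, Slc2a1 in HC, Ldha is above 0 in 14-0-0 against 14-7-0, and Slc16a1 and Ldhb are below 0 in 14-7-2 against 14-7-0.

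Among the transporters for lactate and ketones, Slc16a1 was the member that passed the test over the 7 groups. MCT1 is the carrier of endothelium, astrocytes and oligodendrocytes. In 14-7-2 its lowest, median and highest values were 8.75, 10.7 and 11.7 FPKM, and in 14-7-0 they were 10.7, 11.5 and 13.1 FPKM. The ranges overlapped, but 8 of the 10 libraries of 14-7-2 lay below the median of 14-7-0. The schedules of these 2 groups differ by the 2 days of renewed running after a rest. Between them 5.39% of all genes and 2 of the 10 members passed. The difference of Slc16a1 was -0.14 on the log2 scale (SE 0.052, p = 0.0129, adjusted p = 0.707). It was -0.12 (p = 0.105) in harvest cohort 1 alone, -0.16 (p = 0.0481) in cohort 2 alone, and -0.14 (p = 0.0144) without 14-7-0 replicate 4. The oligodendrocyte marker score, which correlated with Slc16a1 within groups (given below), was also lower in 14-7-2 (-0.11 ± 0.35) than in 14-7-0 (0.20 ± 0.23), all 10 markers being above 0 in every library, and its part in the difference was not tested.

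Against sedentary, Slc16a1 in 14-7-2 differed by -0.12 (p = 0.137), and by -0.15 (p = 0.0493, adjusted p = 0.998) without sedentary replicate 6. HC had the highest mean, with 9.72, 12.6 and 17.7 FPKM as lowest, median and highest, against 9.39, 12.3 and 13.2 FPKM in sedentary. That difference of 0.16 did not pass (p = 0.125). Slc16a7, the high-affinity carrier of neurons, passed in no comparison. Its medians lay between 5.91 FPKM in HC and 6.92 FPKM in 14-0-0, and the sedentary range of 2.33 to 8.03 FPKM was widened at the low end by replicate 6, without which the lowest value was 3.73 FPKM. Its highest estimate was in 14-7-2, 0.26 on the log2 scale with a 95% interval from -0.092 to 0.61, and without replicate 6 it was 0.12 (p = 0.298).

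Of 6 other genes listed for monocarboxylate transport, 3 were tested, and 2 were higher than sedentary in both 14-0-0 and 14-14-0. Emb, the embigin chaperone of these carriers, was at 14.9 and 18.5 FPKM against 8.26 FPKM, with log2 differences of 0.70 (SE 0.23, p = 0.00601) and 0.82 (SE 0.32, p = 0.0197). Slc16a6 was at 4.69 and 4.82 FPKM against 3.03 FPKM (0.54, p = 0.00812, and 0.54, p = 0.0195). These are the groups with most libraries of high choroid plexus score, and after adjustment for that score the differences of Emb were 0.077 (p = 0.674) and -0.023 (p = 0.896) and those of Slc16a6 were 0.094 (p = 0.587) and 0.077 (p = 0.657). Slc16a3, Slc16a8 and Slc5a8 stayed under the minimum.

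The lactate dehydrogenase subunits moved little. The groups 14-0-0 and 14-7-0 differed by 7 days of rest and, per the paper, in initial running distance, which cannot be told apart here. Ldha, the subunit of glycolytic tissue, passed between them (5.63% of all genes and 1 of 10 members passed). Its values were 173, 203 and 230 FPKM (lowest, median, highest) in 14-0-0 and 163, 187 and 208 FPKM in 14-7-0, and 9 of 10 libraries of 14-0-0 lay above the median of 14-7-0. The log2 difference was 0.13 (SE 0.057, p = 0.0370, adjusted p = 0.832), but 0.040 (p = 0.652) in harvest cohort 1 and 0.21 (p = 0.0144) in cohort 2. Ldha was lowest in 14-14-0 (160, 183 and 214 FPKM), with -0.10 against sedentary (p = 0.118) and -0.13 (p = 0.0488, adjusted p = 0.711) without sedentary replicate 6.

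Ldhb, the subunit of oxidative tissue, was lower in 14-7-2 than in 14-7-0. The lowest, median and highest values were 227, 299 and 343 FPKM in 14-7-2 and 297, 313 and 362 FPKM in 14-7-0, so that 8 of 10 libraries of 14-7-2 fell below the other median while the ranges overlapped. The difference was -0.15 (SE 0.069, p = 0.0460, adjusted p = 0.926), and it was -0.049 (p = 0.498) in cohort 1 and -0.24 (p = 0.0620) in cohort 2. With the endothelial marker score as a covariate it was -0.093 (p = 0.205), and that score was -0.086 ± 0.080 in 14-7-2 and -0.011 ± 0.099 in 14-7-0 over 13 tested markers. After adjustment for the choroid plexus score it was -0.14 (p = 0.0665). Against 0-0-2, which shared the last 2 days of running but not the earlier exercise, no member of 14-7-2 passed (2.43% of all genes did), and Ldhb differed by -0.12 (p = 0.111). The third tested dehydrogenase, Ldhd, which acts on D-lactate, was lower in 14-7-0 (3.54 against 4.42 FPKM, -0.31, p = 0.0269, or p = 0.0510 without sedentary replicate 6) and in HC (3.51 FPKM, -0.32, p = 0.0174, or 0.0744 after adjustment for the choroid plexus score) than in sedentary, while Ldhc and the lactate receptor Hcar1 stayed under the minimum.

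Of the members, only the glucose transporter Slc2a3 passed in several groups against sedentary, where it was lower. Slc2a3, the neuronal GLUT3, had a lowest, median and highest value of 35.9, 38.5 and 44.5 FPKM in sedentary, 32.4, 35.5 and 40.6 FPKM in 14-0-0, 31.4, 36.5 and 40.7 FPKM in 14-7-0, and 30.1, 35.1 and 41.7 FPKM in 14-14-0. The ranges overlapped, and 8, 8 and 9 of 10 libraries of these groups lay below the sedentary median. The log2 differences were -0.12 (SE 0.047, p = 0.0195, adjusted p = 0.414), -0.13 (SE 0.052, p = 0.0258, adjusted p = 0.968) and -0.15 (SE 0.052, p = 0.00737, adjusted p = 0.974). In 14-7-2 (34.3, 37.1 and 40.7 FPKM) and 0-0-2 (33.2, 36.7 and 53.5 FPKM), Slc2a3 did not pass, and neither 14-7-2 against 14-7-0 nor 14-7-2 against 0-0-2 passed for it. The 3 differences kept their sign in both harvest cohorts. HC, which never ran, was at 30.9, 35.2 and 44.9 FPKM (lowest, median and highest, 8 of 10 below the sedentary median), with -0.12 (p = 0.0659), or -0.13 (p = 0.0471) without sedentary replicate 6.

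The choroid plexus score moved with Slc2a3 in the first and last of these groups. In the 15 libraries with high scores Slc2a3 was 34.1 ± 2.63 FPKM, and in the 53 with low scores it was 37.5 ± 3.65 FPKM. Without the 15 libraries, 14-0-0 differed from sedentary by -0.11 (p = 0.0727) and 14-14-0 by -0.070 (p = 0.246), with 5 libraries left in each, while 14-7-0, of which no library was among the 15, kept its value. With the score as a covariate the differences were -0.095 (p = 0.135) in 14-0-0 and -0.061 (p = 0.236) in 14-14-0. In the test used by the study, Cyber-T on FPKM, none of the 3 passed (p = 0.183, 0.163 and 0.0839).

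Slc2a1, the transporter of capillary endothelium and glia, was lowest in HC. Its lowest, median and highest values were 19.8, 32.7 and 37.0 FPKM in HC and 26.2, 38.8 and 53.8 FPKM in sedentary, and all 10 HC libraries lay below the sedentary median. The log2 difference was -0.27 (SE 0.13, p = 0.0446, adjusted p = 1), in the comparison that separates mice with OLM training from mice without. Without sedentary replicate 6, which held the highest value, it was -0.21 (p = 0.0903). Cyber-T gave p = 0.0358, and each library's dependence of expression on transcript GC content, used as a covariate, left -0.16 (p = 0.0438). The difference was -0.16 (p = 0.299) in cohort 1 and -0.39 (p = 0.0820) in cohort 2, and -0.17 (p = 0.193) without the 3 HC libraries of high choroid plexus score. Under median-ratio scaling and quantile normalization it was -0.26 (p = 0.0542) and -0.24 (p = 0.0558). With the endothelial marker score as a covariate it was -0.39 (p = 0.00999). That score was 0.074 ± 0.15 in HC and -0.049 ± 0.10 in sedentary.

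Of 7 other hexose transporters 5 were tested. Slc2a12 (GLUT12) was higher than sedentary (1.43 FPKM) in 14-0-0 (7.12 FPKM, log2 difference 1.54, SE 0.49, p = 0.00474) and in 14-14-0 (8.23 FPKM, 1.58, SE 0.54, p = 0.00836). After adjustment for the choroid plexus score they were -0.035 (p = 0.872) and 0.052 (p = 0.747). No other hexose transporter passed against sedentary.

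Hk1, which phosphorylates glucose on its entry into glycolysis, passed in no comparison. Its medians ran from 86.4 FPKM in HC to 100.1 FPKM in sedentary, and its widest range was in HC, from 66.3 to 133 FPKM. Of the other hexokinases, Hkdc1 was higher than sedentary in 14-0-0 (1.48 against 1.08 FPKM, 0.43, SE 0.13, p = 0.00335) and in 14-7-2 (1.52 FPKM, 0.46, SE 0.13, p = 0.00276), also after adjustment for the choroid plexus score (p = 0.00157 and 0.00103), at levels little above the minimum. Below hexokinase, all 16 listed glycolytic genes were tested, and none passed against sedentary except Aldoc and Pfkm, both lower in 14-14-0 (-0.19, p = 0.0340, and -0.10, p = 0.0496). Neither passed without sedentary replicate 6 (p = 0.0564 for Aldoc and 0.0576 for Pfkm) or after adjustment for the choroid plexus score (p = 0.181 and 0.286). The median log2 difference of the 16 from sedentary was between -0.088 in HC and -0.025 in 0-0-2, beside medians over all genes between -0.010 and 0.0083.

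The kinases that gate pyruvate passed in none of the 9 comparisons. Pdk2 had medians between 46.5 FPKM in 0-0-2 and 51.0 FPKM in 14-14-0. Pdk4, which is induced by fasting, fatty acids and glucocorticoids in many tissues, had a median of 3.33 FPKM in 14-7-2, its lowest group, and 4.38 FPKM in HC, its highest. Its largest value of all was 6.82 FPKM in 14-14-0, a group whose median was 3.97 FPKM and whose lowest was 3.04 FPKM. Against sedentary (2.92, 3.71 and 5.06 FPKM) Pdk4 differed in HC by 0.18 (p = 0.127), and by 0.22 (p = 0.0495, adjusted p = 0.994) without sedentary replicate 6. With replicate 6 kept, the difference was 0.061 (p = 0.574) without the HC libraries of high choroid plexus score.

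Pdk4 followed the choroid plexus markers more closely than any other member. In the 15 libraries of high score Pdk4 was 4.97 ± 0.902 FPKM (3.82, 4.73 and 6.82 FPKM as lowest, median and highest), and in the 53 of low score it was 3.64 ± 0.451 FPKM (2.76, 3.59 and 4.68 FPKM). Within the 15, Pdk4 correlated with the score (Pearson r = 0.804, permutation p = 0.00034; Spearman rho = 0.657, permutation p = 0.0094; r = 0.682 without the 2 libraries farthest from the median score), and within the 53 no relation was detected (r = -0.049, permutation p = 0.726; rho = 0.0031, permutation p = 0.983). Of 20 such relations, 10 genes in 2 sets of libraries, this was the only one with an adjusted p under 0.05 (0.0068). Without the 15 libraries Pdk4 was lower in 14-7-2 than in 14-7-0 (-0.20, p = 0.0142) and than in 0-0-2 (-0.17, p = 0.0421), where with them it was -0.14 (p = 0.109) and -0.17 (p = 0.108).

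**Figure D3:**
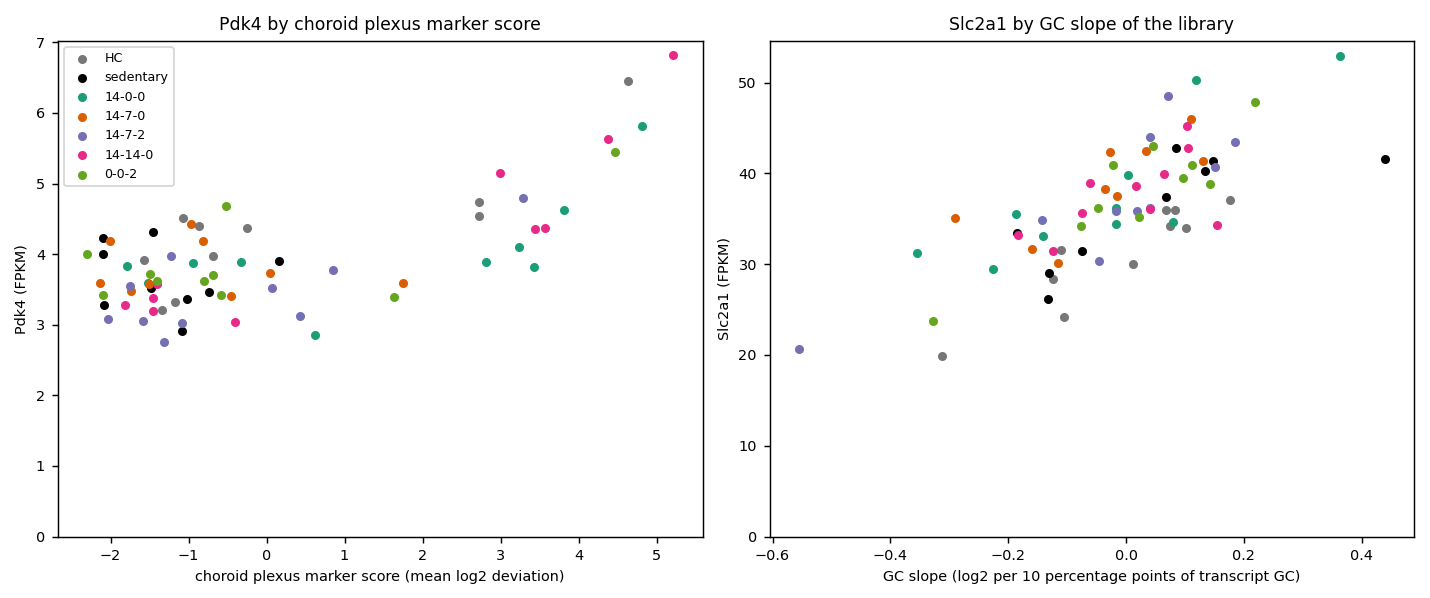
Left, Pdk4 (FPKM) against the choroid plexus marker score (mean log2 deviation over 12 markers), and right, Slc2a1 (FPKM) against the GC slope of the library (log2 per 10 percentage points of transcript GC), in 68 libraries coloured by group. Pdk4 shows no trend up to a score of 1.74 and rises among the 15 libraries from 2.73 up, and Slc2a1 rises over the whole range of the slope.

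Of 12 other genes for the entry of pyruvate into mitochondria, 3 were higher in 14-0-0, where 9.15% of all genes passed (Pdk1 by 0.18, Pdk3 by 0.16 and Dld by 0.17, p = 0.0321, 0.0454 and 0.0494, and above 0.05 for each without sedentary replicate 6 and after adjustment for the choroid plexus score), 2 in 14-7-2, where 4.39% did (Dlat by 0.20, p = 0.00797, and Pdk3 by 0.20, p = 0.0229, or 0.0786 after that adjustment) and none in the other groups. Dlat, a core subunit of pyruvate dehydrogenase, was also higher in 14-7-2 than in 14-7-0 (0.19, p = 0.0170) and 0-0-2 (0.13, p = 0.0255). Among 16 tested genes of fatty acid oxidation and its nuclear receptor PPAR, to which Pdk4 also belongs as a target, 5 were higher than sedentary in 14-0-0, 2 in 14-14-0 and 1 in HC, and none was lower, where 9.15%, 4.95% and 2.3% of all genes passed in either direction. Cpt1a, the gate of fatty acid entry, was higher in all 3 (0.38, 0.49 and 0.25, p = 0.0113, 0.00481 and 0.0438). After adjustment for the choroid plexus score none of the 16 passed in these groups. Glucocorticoid-responsive genes were measured as another list linked to Pdk4. In HC, where 2.3% of all genes passed, 5 of 11 tested were lower than sedentary and none higher. These were led by Sgk1 (29.5 against 42.3 FPKM, -0.53, p = 3.81e-05, adjusted p = 0.495). In 14-0-0, 14-7-0 and 14-7-2 Sgk1 was higher (0.45, 0.40 and 0.39, p = 0.00633, 0.00656 and 0.00441). The first of these was 0.040 (p = 0.729) after adjustment for the choroid plexus score. Per1 was lower in HC (-0.45, p = 0.0112) but also in 14-0-0 and 14-7-2 (-0.45 and -0.37, p = 0.00517 and 0.0237). None of these differences of Per1 passed after that adjustment (p = 0.0703, 0.0507 and 0.0866). Of 8 tested hypoxia-induced genes, Ndrg1 was lower in 14-0-0, 14-7-2 and 0-0-2 (-0.38, -0.42 and -0.43, p = 0.0300, 0.0208 and 0.0410). Without sedentary replicate 6 these were -0.26, -0.30 and -0.32 (p = 0.0503, 0.0338 and 0.0833). Against 14-7-0, Ndrg1 was lower in 14-0-0 and 14-7-2 (-0.36 and -0.40, p = 0.00332 and 0.00238). The oligodendrocyte marker score was 0.17 ± 0.50 in sedentary and 0.20 ± 0.23 in 14-7-0. In 14-0-0, 14-7-2 and 0-0-2 that score was -0.11 ± 0.21, -0.11 ± 0.35 and -0.29 ± 0.46, and its part was not tested. P4ha1 was lower in 14-7-0 and 14-7-2 (-0.20 and -0.21, p = 0.0320 and 0.0138). No gene of this list was higher in any of the 9 comparisons.

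Bdh1, which makes and uses beta-hydroxybutyrate, passed in no comparison. Its medians lay between 14.8 FPKM in HC and 16.6 FPKM in 0-0-2. In 0-0-2 it differed from sedentary by 0.070 (p = 0.238), and by 0.11 (p = 0.0268) without the 1 library of 0-0-2 with a high choroid plexus score, which was also its lowest Bdh1 value (12.7 FPKM). All 6 other ketone genes were tested. Acat1 and Oxct1, which complete the use of ketones in mitochondria, were both higher in 14-0-0 than in sedentary (0.15, p = 0.0129, and 0.15, p = 0.0241) and than in 14-7-0 (0.14, p = 0.0197, and 0.13, p = 0.0217), and Acat1 also in 0-0-2 (0.12, p = 0.0481). None of these passed after adjustment for the choroid plexus score (p from 0.102 to 0.172). Of the 10 glycogen genes, the branching enzyme Gbe1 was higher in 14-0-0 (0.24, p = 0.00694) and 14-14-0 (0.30, p = 0.0314) (0.083, p = 0.344, and -0.0014, p = 0.988, after adjustment for the choroid plexus score), and the synthase Gys1 was lower in 14-7-0 (-0.15, p = 0.0283) and 14-7-2 (-0.12, p = 0.0401, or 0.0523 without sedentary replicate 6 and 0.0889 after the adjustment).

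Because a ratio of 2 genes within a library does not depend on how the library was scaled, the paired genes were also compared as ratios. The ratio of Ldha to Ldhb had a median of 0.622 over 70 libraries. By group its medians were 0.681 in 14-7-2, 0.688 in 0-0-2, 0.639 in sedentary, 0.597 in 14-0-0, 0.596 in HC, 0.588 in 14-7-0 and 0.583 in 14-14-0. Sedentary replicate 6 had the lowest ratio of all libraries, 0.338, against 0.565 to 0.798 in the other sedentary libraries. In permutation tests of the log2 ratio against sedentary, no group passed (unadjusted p from 0.173 to 0.937). Without sedentary replicate 6 the ratio was lower in 14-14-0 by -0.21 (unadjusted permutation p = 0.00993) and in 14-7-0 by -0.15 (p = 0.0488), the former being -0.30 in cohort 1 and 0.065 in cohort 2 with all sedentary libraries kept.

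The ratio of Slc16a1 to Slc16a7 was lower than sedentary in 14-7-2 by -0.37 on the log2 scale (SE 0.16, permutation p = 0.0273) and in 14-0-0 by -0.30 (SE 0.14, permutation p = 0.0336), each with an adjusted p of 0.302 over the 18 tests. Sedentary medians were 2.08, with a highest value of 4.03 in replicate 6, and those of 14-7-2 and 14-0-0 were 1.65 and 1.70. Without replicate 6 the differences were -0.27 (p = 0.0546) and -0.20 (p = 0.0678), and with it they were -0.12 and -0.25 in cohort 1 and -0.63 and -0.35 in cohort 2. The ratio of Slc2a1 to Slc2a3 had group medians from 0.885 in HC to 1.10 in 14-14-0, and no group passed against sedentary (permutation p from 0.193 to 0.906). Without replicate 6 it was higher in 14-7-0 by 0.24 (p = 0.0311) and in 14-14-0 by 0.24 (p = 0.0406).

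**Figure D4:**
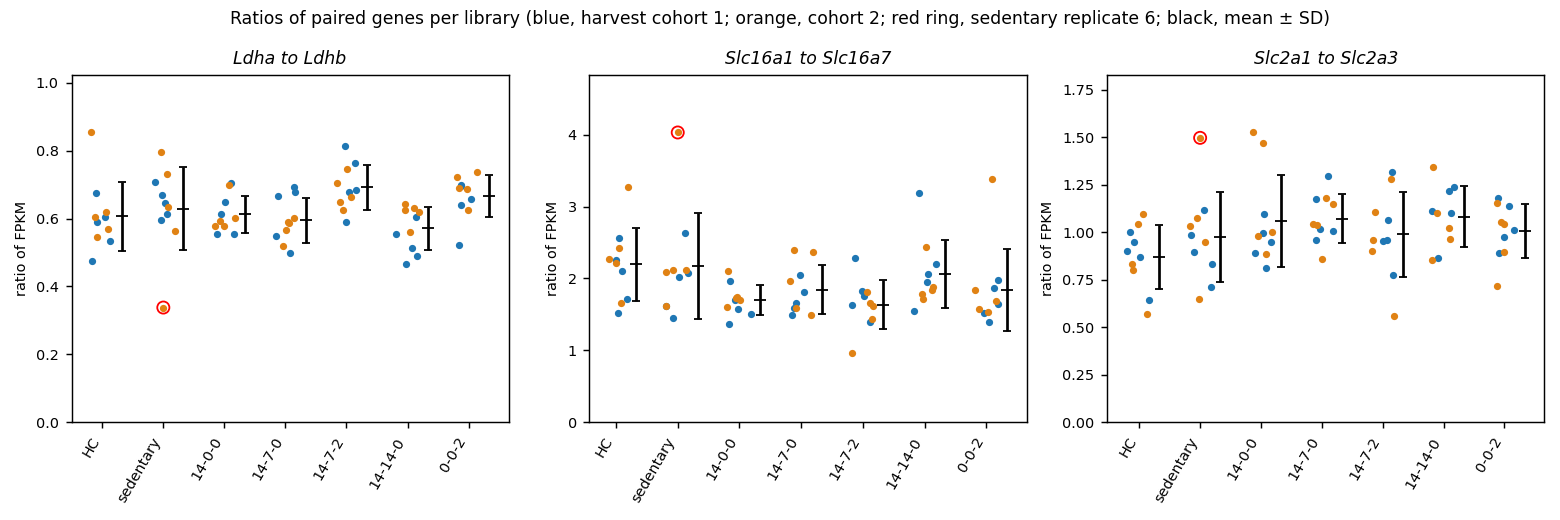
Ratio of FPKM of Ldha to Ldhb, Slc16a1 to Slc16a7 and Slc2a1 to Slc2a3 (vertical axes, from 0) in each library by group, coloured by harvest cohort, with mean ± SD (n = 10) and a red ring for sedentary replicate 6. The ringed library lies far from the other sedentary libraries in each panel (0.338, 4.03 and 1.5), and the groups overlap.

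Harvest cohort, the one batch that the labels give, was balanced over the groups. Between cohorts 11.9% of all genes and 0 of the 10 members differed at an unadjusted p under 0.05. The nearest was Hk1, with means of 91.7 FPKM in cohort 1 and 97.8 FPKM in cohort 2 (0.094, SE 0.049, p = 0.0583). Without sedentary replicate 6, Hk1 (0.11, p = 0.0247) and Ldhb (-0.097, p = 0.0125) both passed.

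The members also varied together between libraries of a group. Correlations were computed over 68 libraries on log2 values with each group's mean subtracted, leaving out sedentary replicate 6 and 14-7-0 replicate 4, and the points share library preparation and depth. Of 45 pairs, 18 were positive and 9 negative at an adjusted permutation p under 0.05. Slc2a1 and Bdh1 had the highest value (r = 0.747, rho = 0.647, both with the smallest p that 100000 permutations can give, 1e-05), with 0.540 and 0.828 in the harvest cohorts and 0.652 without the 2 farthest libraries. Hk1 and Pdk2 followed (r = 0.731, rho = 0.690, cohorts 0.750 and 0.717). Slc16a7 went against most others, most against Pdk2 (r = -0.645, rho = -0.639, cohorts -0.674 and -0.567).

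For some members this pattern went with the GC content of the transcripts. The longest annotated transcripts of Pdk2, Hk1 and Slc2a1 have 56.9%, 56.4% and 54.0% GC, and that of Slc16a7 has 37.7%. A GC slope was computed for each library, as the change in log2 expression per 10 percentage points of transcript GC over the 96.4% of tested genes with a value. It correlated with Slc2a1 (r = 0.838, rho = 0.818), Bdh1 (r = 0.779, rho = 0.733), Hk1 (r = 0.767, rho = 0.797), Pdk2 (r = 0.687, rho = 0.603) and Slc16a7 (r = -0.576, rho = -0.523), each with a permutation p of 1e-05 and with the same sign in both cohorts. Transcript GC did not order all members: Slc16a1, with 42.9% GC, had r = -0.039, and Ldhb, with 53.0%, had r = 0.34, below Bdh1 with 52.1%. After the slope was removed, the correlation of Slc2a1 with Hk1 went from 0.652 to 0.075, that of Slc2a1 with Bdh1 from 0.747 to 0.313, that of Hk1 with Pdk2 from 0.731 to 0.454, and that of Slc16a7 with Pdk2 from -0.645 to -0.429. Of the 27 pairs, 12 had a size over 0.3 after this, among them Slc16a1 with Bdh1, which went up from 0.298 to 0.512.

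**Figure D5:**
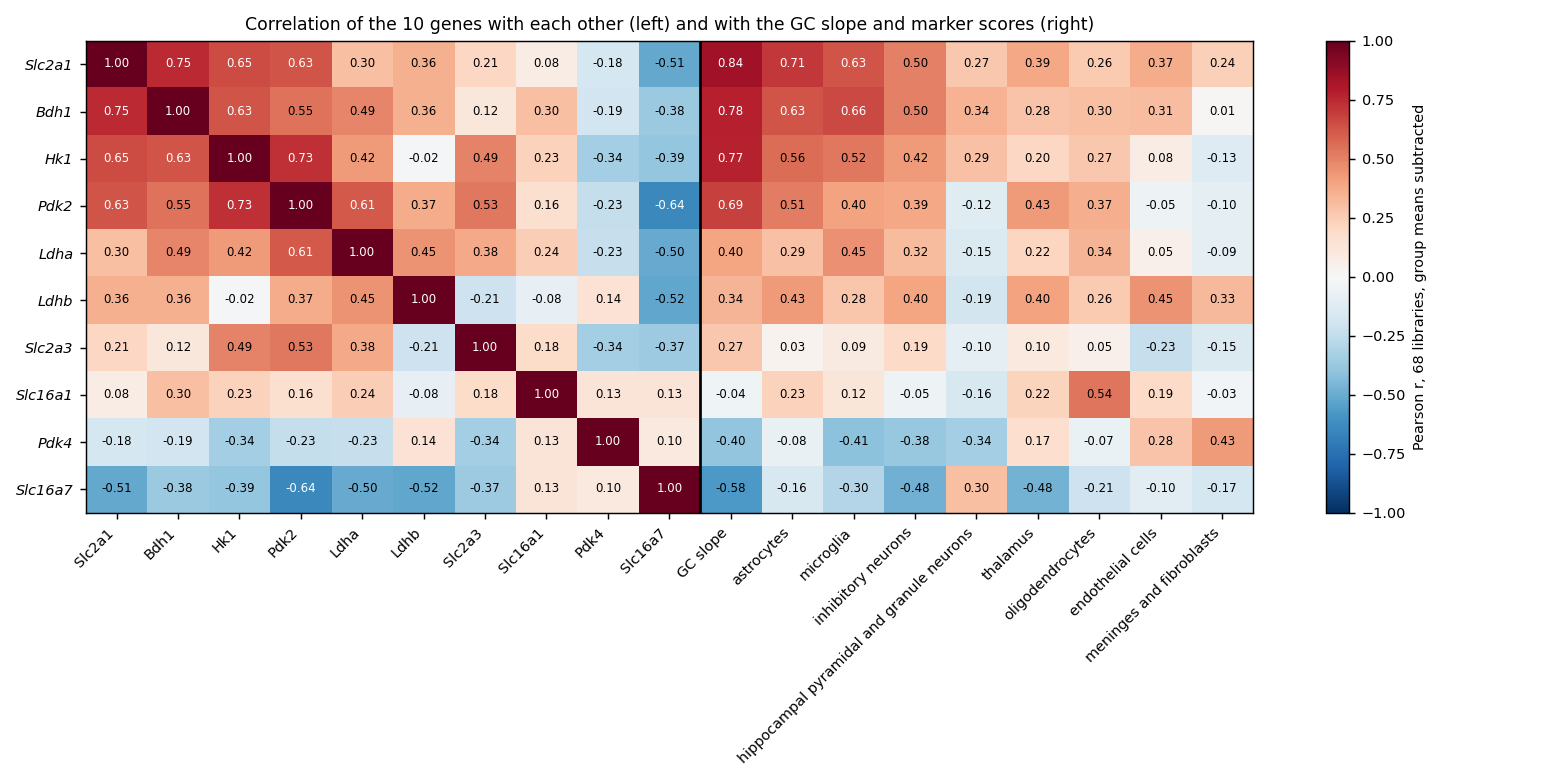
Pearson r over 68 libraries with group means subtracted, among the 10 genes (left of the line) and of each gene (rows) with the GC slope and the marker scores other than choroid plexus (right of the line), on a scale from -1 (blue) to 1 (red). Slc2a1, Bdh1, Hk1 and Pdk2 form a red block with each other and with the GC slope (0.69 to 0.84), and Slc16a7 is blue against them.

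Scores of cell type markers went with the same genes. Of 100 relations between the members and 10 scores, Slc2a1 had r = 0.708 with astrocyte markers (rho = 0.616, cohorts 0.731 and 0.704) and Bdh1 had r = 0.658 with microglial markers (rho = 0.567, cohorts 0.367 and 0.772), while Slc16a1 alone had its highest value with oligodendrocyte markers (r = 0.538, rho = 0.495, cohorts 0.582 and 0.534, r = 0.50 without the 2 farthest libraries, adjusted permutation p = 8.33e-05). No relation of Slc16a1 to the GC slope was detected (r = -0.039, permutation p = 0.748). Ldhb had its highest value with endothelial markers (r = 0.449, rho = 0.482, cohorts 0.435 and 0.464). The part of the GC slope in the marker relations of Slc2a1, Bdh1 and Ldhb was not tested.

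The genes most like each member over the same 68 libraries, by Pearson r, differed from member to member. Neither the GC slope nor the choroid plexus score was removed first, and their part in these correlations was not tested. Those of Slc16a7 were the synaptic genes Ppp1r9a (0.869) and Cnksr2 (0.853), and those of Slc2a3 were Hpcal4 (0.808), Nos1 (0.746) and Tspyl3 (0.739). Pdk4 was most like Maob (0.852), Timp3 (0.849) and Slc39a12 (0.847), Slc2a1 most like Lmf2 (0.871), Lfng (0.867) and Mdk (0.863), and Bdh1 most like Abcb8 (0.872), the complex I subunit Ndufv1 (0.842) and pyruvate carboxylase, Pcx (0.839). Hk1 went with Mapk8ip2 (0.915), Tbc1d10b (0.904) and Atp9a (0.886), and Pdk2 with Rangap1 (0.905), Usp5 (0.879) and Coro2b (0.878). Ldha went with the proton pump subunit Atp6v1e1 (0.851), Gps1 (0.836) and Psmd13 (0.824), Ldhb with Anapc13 (0.811), the mitochondrial Idh2 (0.767) and Clu (0.764), and Slc16a1 least closely with any gene, its highest being Ppp2r3a (0.687), Rapgef4 (0.673) and Ttll7 (0.662).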

How the data were processed

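Per the labels and the paper's methods, the authors aligned single reads to mm10 with ELAND v2e and Bowtie, dropped reads matching several places, and deposited FPKM values (Cuffnorm is named in the submitters' processing notes). No counts were used here, and the paper lists total reads per library by barcode, without naming the group. The depth behind a value is thus unknown, and only a relative depth was estimated from the smallest steps of low genes. No 2 libraries were identical (highest r 0.9945).

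Values were taken as log2(FPKM + 0.1), and genes averaging 1 FPKM or more were tested in limma 3.58.1 (R 4.3.3; moderated two-sided tests, variance trend) on the 20 libraries of each of 9 comparisons. The threshold was an unadjusted p of 0.05, as in the study, with Benjamini-Hochberg values over 12994 genes beside it. Alternatives were Cyber-T (settings chosen here), other scalings, minimums and pseudocounts, marker scores or harvest cohort as covariates, single cohorts and left-out libraries. The GC slope as a covariate and leaving out the high choroid plexus libraries were added after seeing the data. Ratios and correlations were tested by 100000 permutations. Scores are mean log2 deviations of marker genes. Only the limma fits of pairs of groups, the joint fit of all groups and Cyber-T were tested on simulated data. The members, lists and libraries doubted were chosen with earlier results of these data known. Beyond the members, at most 4 called genes of smallest p per list and comparison, and the 3 most similar genes per member, could be named; a few of these are not reported here. Nothing in the labels ties equal replicate numbers to a shared animal. The p-values of group comparisons weigh a difference against the spread between the mice sampled. Coordinates are RefSeq GRCm38.p6.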

Additional observations from a re-analysis of the deposited data

Results flagged for a closer look

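Of 70 sets of 10 libraries (10 genes in 7 groups), 7 held a library whose gap to its nearest neighbour exceeded 0.466 of the range of its group, and chance gives about 1 in 20. Ldhb was high in 0-0-2 replicate 4 (380.5 FPKM, others 275 to 331) and in 14-7-0 replicate 3 (362 FPKM, others 297 to 331). Slc2a3 was 53.5 FPKM in 0-0-2 replicate 8, where the others were between 33.2 and 39.6 FPKM, the widest gap of the 7 (0.687 of the range). Pdk4 was 6.45 FPKM in HC replicate 3 (others 3.21 to 4.73), one of the libraries with a high choroid plexus score. Bdh1 was 18.2 FPKM in sedentary replicate 0 (others 14.5 to 16.2), 12.7 FPKM in 0-0-2 replicate 9 (others 15.4 to 18.1) and 10.3 FPKM in 14-7-2 replicate 9 (others 14.5 to 17.3), and these last 2 are also libraries of high choroid plexus score.

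The difference from sedentary was compared between the harvest cohorts for 10 genes in 6 comparisons, and 2 of the 60 interactions had an unadjusted p under 0.05. Both were for Pdk2. In 14-7-2 Pdk2 differed from sedentary by 0.15 in cohort 1 and by -0.28 in cohort 2, a change between cohorts of -0.43 (SE 0.20, p = 0.0486, adjusted p = 0.953), and in 14-14-0 by 0.18 and -0.13, a change of -0.31 (SE 0.13, p = 0.0265, adjusted p = 1).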

How the results depend on the processing

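The number of members passing (out of 10) was recomputed under each alternative, and none of the 7 differences of a member that passed, nor the 2 ratios, changed sign; some differences that did not pass changed sign, as without sedentary replicate 6. In 14-0-0 it went from 1 to 0 with the choroid plexus or endothelial score as a covariate, by Cyber-T, in either cohort alone, at p under 0.01 and without the high choroid plexus libraries. In 14-7-0 it went from 1 to 0 by Cyber-T, in either cohort and at p under 0.01, and in 14-14-0 from 1 to 0 with the choroid plexus score, by Cyber-T, in cohort 1 and without the high choroid plexus libraries, and to 2 without sedentary replicate 6. In HC it went from 1 to 0 under median-ratio scaling, quantile normalization, the choroid plexus score, either cohort, p under 0.01 and without the high choroid plexus libraries, to 2 with the endothelial score or without sedentary replicate 6, and to 3 in a joint fit. In 14-7-2 it went from 0 to 1 in the joint fit and without sedentary replicate 6, and in 0-0-2 from 0 to 1 with the choroid plexus score and without those libraries. For 14-0-0 against 14-7-0 it went from 1 to 0 under median-ratio scaling, the joint fit, Cyber-T, cohort 1 and p under 0.01, and for 14-7-2 against 14-7-0 from 2 to 0 in the joint fit, with the endothelial score, by Cyber-T and at p under 0.01, and to 1 in either cohort (Pdk4 in cohort 1 and Slc16a1 in cohort 2). In that comparison it stayed at 2 with the choroid plexus score and without the high choroid plexus libraries, but with Pdk4 (p = 0.0432 and 0.0142) in place of Ldhb (p = 0.0665 and 0.0894). For 14-7-2 against 0-0-2 it went from 0 to 1 under quantile normalization, the GC slope and without the high choroid plexus libraries. Over the 7 groups it went from 1 to 0 in cohort 1, and between cohorts from 0 to 1 under median-ratio scaling and to 2 without sedentary replicate 6. The causes were not tested.

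With a replicate block the number was 0 for 14-0-0 against 14-7-0, 1 for 14-7-2 against 14-7-0 and 1 for 14-7-2 against 0-0-2, with no change in the number elsewhere. Whether equal numbers mark paired samples was not settled. In each comparison 2 to 7 of 10 same-numbered pairs deviated together with r over 0.1. The median r of same-numbered pairs was 0.134 in 14-0-0 against sedentary, where it was -0.026 for other pairs. It was higher than for other pairs in every comparison except 14-7-2 against sedentary (-0.0057 and 0.0012). With the block, 14.5% of all genes passed in 14-0-0 against sedentary, and 9.15% without it. The reads that the paper lists could not be linked to the groups, and the number of libraries limits what differences can be seen.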
